A study of Arabidopsis thaliana with 4 samples.

Results

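The serine carboxypeptidase-like (SCPL) genes of Arabidopsis thaliana were followed here through every array probe whose platform annotation lists a gene symbol made of SCPL and a number. Of 26474 gene probes, 29 list such a gene, and the 28 with a measured ratio on at least 3 of 4 arrays are described. Of these 28 probes, 11 list 1 gene each and stand for 10 genes, because SCPL29 has a pair of them. The other 17 list several genes, so none of their values is assigned to a single gene. Of 51 SCPL genes in the TAIR10.1 gene table, 10 had a probe of their own, 20 were listed on shared probes alone and 21 were on none of the 28. Symbols are written in capitals throughout.

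SCPL proteins share the fold and the catalytic serine, aspartate and histidine of serine carboxypeptidases, enzymes that cleave amino acids from the carboxyl end of peptides. Many carry a signal peptide and reach the vacuole or the cell wall space. Some members no longer cleave peptides and work as acyltransferases, which move an acyl group from a glucose ester to another molecule. SNG1 (SCPL8) makes sinapoylmalate in leaves in this way and SNG2 (SCPL19) makes sinapoylcholine in seeds. BRS1 (SCPL24) was found as a suppressor of a weak mutant of the brassinosteroid receptor BRI1.

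The arrays were 4 Operon oligonucleotide arrays, called sets 1 to 4, each hybridised with total RNA of apetala2 mutant inflorescences in one channel and of wild-type inflorescences in the other. APETALA2 is a transcription factor needed for sepal and petal identity. By the labels, channel 1 held apetala2 on sets 1 and 3, and channel 2 held it on the other two. The labels name no allele, ecotype, plant age, dye or ratio direction, and do not state that the arrays used different plants. The p-values therefore rest on array-to-array spread, which may be technical. No probe lists AP2, so the mutated gene could not be checked, and a ratio of the channels gives no level by which marker genes could check the tissue. In whole inflorescences, fewer cells of a type and less RNA per cell cannot be told apart.

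Each value is a log2 ratio of the channels. Between 25741 and 25841 gene probes had a measured ratio per array, with medians from -0.014 to 0.059. In the labelled orientation the signs of sets 2 and 4 were turned, so that apetala2 stands on the same side throughout. The correlations between arrays did not all follow the labelled channels, and the cause of this was not tested. Sets 1 and 2, and sets 3 and 4, with opposite labelled channels, correlated at r = -0.479 and -0.474. Sets 1 and 3, with the same labelled channels, correlated at r = -0.227 over 25458 probes, and sets 1 and 4, with opposite ones, at r = 0.313 over 25463. The means and tests of the SCPL probes are therefore given a second time with sets 2 and 3 turned. This places sets 1 and 4 on one side and is called the turned orientation. Because it was chosen from these same ratios, its p-values tend to be too small and are descriptive. Values in that orientation are called negative or positive as they stand on sets 1 and 4. In neither orientation is a genotype named as the higher, because the labels do not say which channel is the numerator of the ratio.

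The acyltransferase branch of the family was almost unrepresented. Of the 19 genes SCPL1 to SCPL19, only SCPL18 was on any of the 28 probes. SNG1, SNG2 and SCPL9 were listed on no probe that the annotation names, and neither was BRS1, although 13193 gene probes are unnamed here. The probes therefore speak mainly for the members numbered from 20 upwards. Probes that list genes in common joined these genes into 13 groups, of which 4 held 1 gene.

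**Figure D1:**
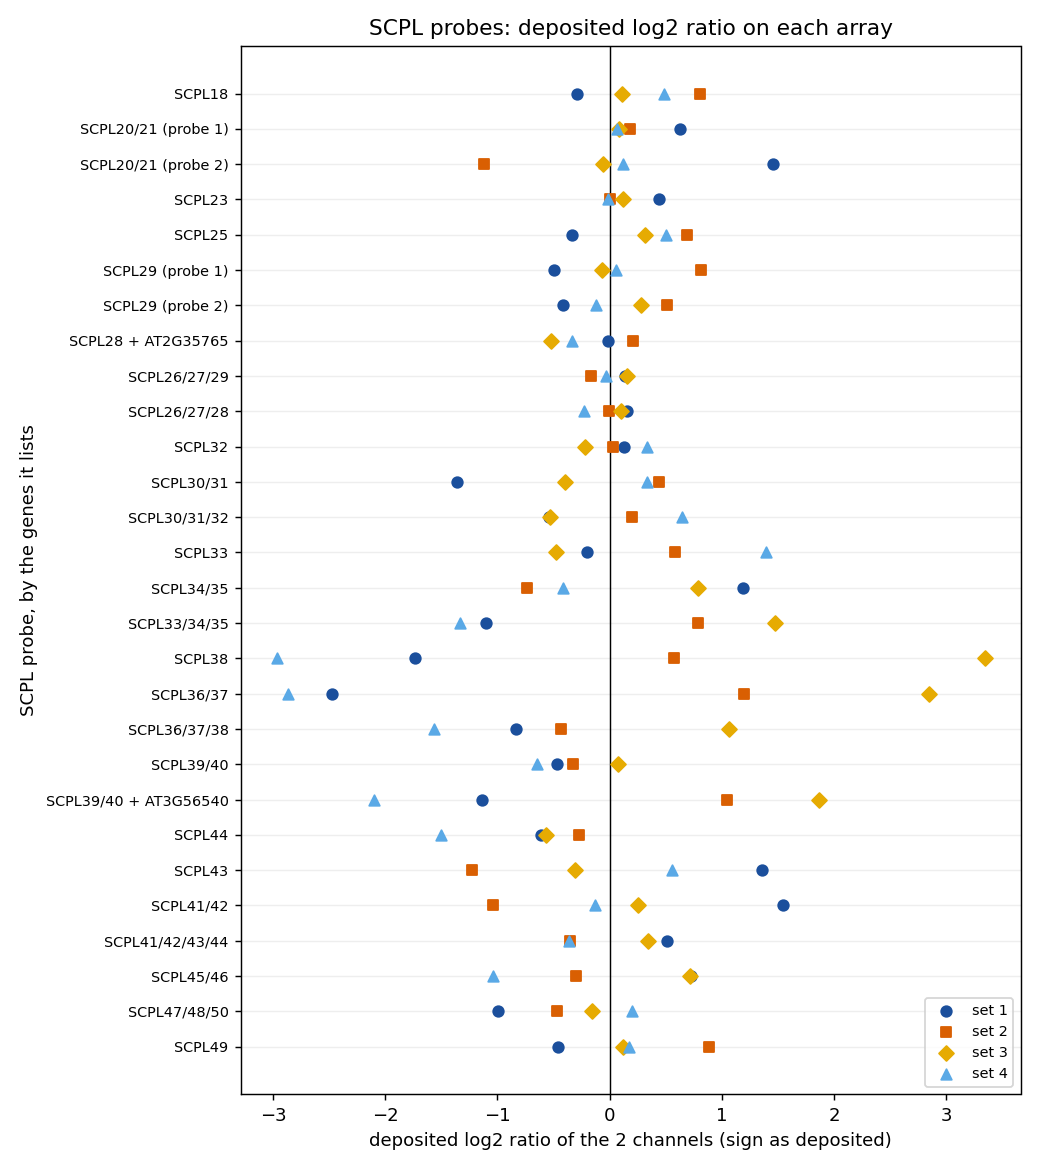
Deposited log2 ratios of the 28 SCPL probes (x axis, sign as deposited) by probe (y axis, named by the genes it lists), with a point for each of the 4 arrays. The probe of SCPL38 and that of SCPL36 and SCPL37 reach furthest from 0, from -2.97 on set 4 to 3.34 on set 3.

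The family spread more widely than probes in general. The standard deviation over the 28 probes was 0.966, 0.665, 0.962 and 1.04 for sets 1 to 4. Over all gene probes it was 0.690, 0.607, 0.615 and 0.669. The SCPL38 probe and the SCPL36 and SCPL37 probe held the values furthest from 0 on sets 1, 3 and 4 (-2.47, 3.34 and -2.97). Standard deviations without the probes of SCPL36 to SCPL38 were not computed, so the wider spread may rest largely on them. In the labelled orientation the median size of the mean log2 ratio, without regard to sign, was 0.363 over the 28 probes and 0.148 over all 25777 tested. For the turned orientation these medians were 0.243 and 0.161. These are descriptions of the probes and were not tested, since several of the 28 list the same genes.

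The probe of SCPL38 and the one that lists SCPL36 and SCPL37 had the largest ratios of the family. SCPL38 (AT2G05850), with a probe of its own, had deposited ratios of -1.74, 0.58, 3.34 and -2.97 on sets 1, 2, 3 and 4. The probe that lists SCPL36 and SCPL37 had -2.47, 1.20, 2.85 and -2.87. Both lay below 0 on sets 1 and 4 and above 0 on sets 2 and 3, nearest to 0 on set 2. In the gene table SCPL36, SCPL37 and SCPL39 follow one another with 0 protein-coding genes between neighbours, whereas SCPL38 lies on another chromosome.

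In the turned orientation, the SCPL36 and SCPL37 probe had a mean of -2.35 ± 0.30, or 5.08-fold (SE, n = 4, limma adjusted p = 0.0244). SCPL38 had -2.16 ± 0.46, or 4.46-fold (SE, n = 4, limma adjusted p = 0.100), and did not pass at 0.05. The SCPL36 and SCPL37 probe no longer passed when set 1, set 3 or set 4 was left out (limma adjusted p from 0.0934 to 0.112), with a term for the channel (limma adjusted p = 0.0575) or with values at the limit of the scale kept (limma adjusted p = 0.0867). SCPL38 passed in a single alternative, when set 2 was left out, at -2.68 (limma adjusted p = 0.0365). In the labelled orientation the means were 0.51 ± 1.04 for the SCPL36 and SCPL37 probe and 0.999 ± 0.959 for SCPL38 (SE, n = 4, limma adjusted p = 0.941 and 0.840).

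One more probe, which lists SCPL36, SCPL37 and SCPL38 together, gave smaller ratios. It is named because of its shared genes, after its values were seen. Its ratios were -0.83, -0.44, 1.06 and -1.56 on sets 1 to 4. Set 2 thus lay on the other side of 0 from the other probes of this group. Its mean with sets 2 and 3 turned was -0.76 ± 0.32 (SE, n = 4, limma adjusted p = 0.408), and with the labelled channels 0.56 ± 0.40. It differed from the SCPL36 and SCPL37 probe by 1.30 to 1.78 in size per array.

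The shared probes of SCPL39 and SCPL40 disagreed as well. The one that also lists AT3G56540 had -1.14, 1.05, 1.87 and -2.10 on sets 1 to 4. It too lay below 0 on sets 1 and 4 and above 0 on sets 2 and 3. Its mean with sets 2 and 3 turned was -1.54 ± 0.22, or 2.91-fold (SE, n = 4, limma adjusted p = 0.0321), and with the labelled channels 0.45 ± 0.68 (limma adjusted p = 0.913). The probe that lists SCPL39 and SCPL40 alone, named here as its partner after the values were seen, had -0.47, -0.33, 0.076 and -0.65, with 3 of 4 sets negative. Its mean with sets 2 and 3 turned was -0.22 ± 0.19 (SE, n = 4, limma adjusted p = 0.679), and with the labelled channels 0.15 ± 0.21.

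Probes of SCPL33, SCPL34 and SCPL35 divided between the orientations. The probe that lists all of them had -1.10, 0.78, 1.48 and -1.34 on sets 1 to 4, in the same order of signs as SCPL38. In the turned orientation it had a mean of -1.17 ± 0.15, or 2.26-fold (SE, n = 4, limma adjusted p = 0.0257), and in the labelled one 0.23 ± 0.52 (limma adjusted p = 0.948). The probe that lists SCPL34 and SCPL35 had 1.19, -0.74, 0.79 and -0.42, above 0 on sets 1 and 3 and below 0 on sets 2 and 4, the signs that the labelled channels call for. Its mean with the labelled channels was 0.78 ± 0.16 (SE, n = 4, limma adjusted p = 0.656), which did not pass, and 0.18 ± 0.35 when turned. SCPL33 (AT3G17180), with a probe of its own, had -0.21, 0.58, -0.48 and 1.40. Its signs also alternated with the labelled channels, but opposite to those of the SCPL34 and SCPL35 probe, and its mean there was -0.66 ± 0.22 (SE, n = 4, limma adjusted p = 0.760), against 0.27 ± 0.33 when turned.

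**Figure D2:**
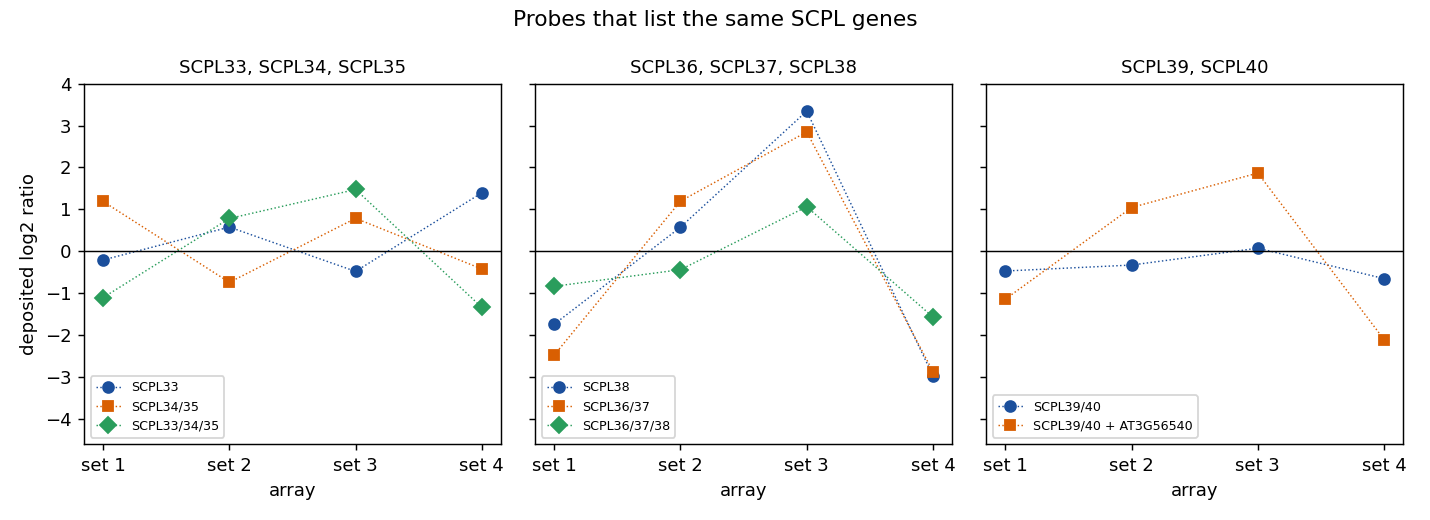
Deposited log2 ratios (y axis) on sets 1 to 4 (x axis) for probes that list genes in common, in 3 panels. Each marker is 1 probe on 1 array, and dotted lines join the arrays of a probe without implying an order. The probe of SCPL33, SCPL34 and SCPL35 is at -1.10 on set 1, where the probe of SCPL34 and SCPL35 is at 1.19.

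Probes of SCPL41 to SCPL44 had means above 0 in both orientations, except that of SCPL44 with sets 2 and 3 turned. SCPL43 (AT2G12480) had 1.36, -1.23, -0.31 and 0.56 on sets 1 to 4. Sets 1 and 4 were positive and sets 2 and 3 negative, the mirror image of the SCPL38 pattern. Its mean with sets 2 and 3 turned was 0.86 ± 0.21, or 1.82-fold (SE, n = 4, limma adjusted p = 0.149), and with the labelled channels 0.43 ± 0.39. It did not pass, and its mean was the highest of the 28 probes in the turned orientation.

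SCPL41 and SCPL42, whose loci have 2 protein-coding genes between them in the gene table, share a probe with 1.55, -1.04, 0.26 and -0.13 on sets 1 to 4. Its signs followed the labelled channels, and sets 1 and 2 lay much further from 0 than sets 3 and 4. The mean with the labelled channels was 0.74 ± 0.27 (SE, n = 4, limma adjusted p = 0.760) and the turned one 0.55 ± 0.34. The probe that lists SCPL41, SCPL42, SCPL43 and SCPL44 had 0.51, -0.36, 0.34 and -0.36, with 97.0% of its squared ratios in the labelled contrast. Its mean there was 0.39 ± 0.11 (SE, n = 4, limma adjusted p = 0.738), and 0.042 ± 0.196 when turned. SCPL44 (AT1G43780) had -0.61, -0.27, -0.56 and -1.50, negative on every array whatever the labelled channel. Its mean was 0.15 ± 0.39 in the labelled orientation and -0.32 ± 0.35 in the turned one (SE, n = 4), neither of which passed.

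SCPL45 and SCPL46 were listed on a pair of shared probes. On the tested probe the ratios were 0.73, -0.30, 0.72 and -1.04 on sets 1 to 4, with signs that followed the labelled channels. Its mean there was 0.70 ± 0.16 (SE, n = 4, limma adjusted p = 0.697), and -0.18 ± 0.32 when turned. The other probe had -0.97 on set 1 and 0.58 on set 2, and stood at the upper limit of the deposited scale, 6.644, on sets 3 and 4. It had 2 measured ratios and is the one probe of the family left out.

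The shared probes of SCPL30, SCPL31 and SCPL32 followed the labelled channels, and the probe of SCPL32 alone did not. The probe of SCPL30 and SCPL31 had -1.36, 0.44, -0.39 and 0.34 on sets 1 to 4. The probe that adds SCPL32 had -0.54, 0.20, -0.53 and 0.64. Both lay below 0 on sets 1 and 3 and above 0 on the other two, as the labelled channels alternate. Their means with the labelled channels were -0.63 ± 0.21 (SE, n = 4, limma adjusted p = 0.760) and -0.48 ± 0.13 (SE, n = 4, limma adjusted p = 0.727). Turned, they were -0.27 ± 0.31 and 0.11 ± 0.23 (SE, n = 4). SCPL32 (AT1G61130), on its own probe, had 0.13, 0.034, -0.22 and 0.33, and means of -0.12 ± 0.13 with the labelled channels and 0.16 ± 0.12 with sets 2 and 3 turned (SE, n = 4). Set 1 of SCPL32 thus had the opposite sign to the shared probes.

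SCPL29 (AT4G30810) is the gene with more than 1 probe of its own. Its first probe had -0.49, 0.81, -0.067 and 0.055 on sets 1 to 4, and its second -0.42, 0.51, 0.28 and -0.12. The probes agreed in sign on sets 1 and 2 and differed in sign on sets 3 and 4, where no value was above 0.28 in size. Turned, the means were -0.30 ± 0.19 and -0.33 ± 0.12 (SE, n = 4, limma adjusted p = 0.567 and 0.342). In the labelled orientation they were -0.36 ± 0.17 and -0.13 ± 0.18 (SE, n = 4, limma adjusted p = 0.760 and 0.898).

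Among the remaining genes with their own probes, SCPL49, SCPL25 and SCPL18 were negative on set 1 alone. SCPL49 (AT3G10410), which the gene table also names carboxypeptidase Y after the vacuolar enzyme of yeast, had -0.46, 0.88, 0.12 and 0.17 on sets 1 to 4. SCPL25 (AT3G02110) had -0.33, 0.69, 0.31 and 0.50. SCPL18 (AT1G33540), the one gene from the numbers that hold the known acyltransferases, had -0.29, 0.81, 0.11 and 0.48. In all of them set 1 was the lowest and set 2 the highest array.

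The means of these genes lay below 0 in both orientations, and none passed. Labelled, they were -0.35 ± 0.19 for SCPL49, -0.30 ± 0.19 for SCPL25 and -0.37 ± 0.18 for SCPL18 (SE, n = 4, limma adjusted p from 0.760 to 0.786). Turned, they were -0.32 ± 0.20, -0.21 ± 0.21 and -0.18 ± 0.22 (SE, n = 4). SCPL23 (AT2G24010), next to SCPL22 in the gene table, had 0.44, 0.0026, 0.12 and -0.013, so that set 1 alone lay clearly above 0. Its means were 0.14 ± 0.13 with the labelled channels and 0.076 ± 0.14 with sets 2 and 3 turned (SE, n = 4).

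SCPL20 and SCPL21 share a pair of probes that differed in size and had the same sign on only 2 of 4 sets. The one had 1.46, -1.12, -0.058 and 0.12 on sets 1 to 4, above 0 on sets 1 and 4 and below 0 on sets 2 and 3, with sets 3 and 4 near 0. Its mean in the turned orientation was 0.69 ± 0.28 (SE, n = 4, limma adjusted p = 0.372) and in the labelled one 0.60 ± 0.32. The other was positive on every array, from 0.069 to 0.63, and had a mean of 0.11 ± 0.17 in either orientation (SE, n = 4).

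The 4 probes not yet given individually list SCPL26 to SCPL29 in various combinations, in 1 case beside AT2G35765, or SCPL47, SCPL48 and SCPL50. Their means lay between -0.22 and 0.12 with the labelled channels and between -0.043 and 0.031 with sets 2 and 3 turned. None of them passed in either orientation.

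With the labelled channels limma gave 0 of the 28 probes an adjusted p under 0.05, and 0% of all 25777 probes, and the lowest adjusted p of the family was 0.656. At an unadjusted p under 0.05 there were 7 of 28 probes, of which 1 has 1 gene, beside 6.55% of all probes. Of the 7, 4 were positive and 3 negative, and they list only genes from SCPL30 to SCPL35 and SCPL41 to SCPL46. The same sign stood on every array for 10 of 28 probes, beside 16.5% of all. A mean of at least 1 in size was reached by 0 of 28, beside 1.63% of all. The median mean was 0.13 over the 28 probes and 0.017 over all.

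In the turned orientation 3 of 28 probes passed, beside 2.05% of all probes, and all 3 were negative, where 1.82% of all 25777 probes passed as negative. These are the shared probes of SCPL36 and SCPL37, of SCPL39, SCPL40 and AT3G56540, and of SCPL33, SCPL34 and SCPL35. None of the 11 probes with 1 gene passed. The calls rest on few arrays and on an orientation chosen from the same ratios, so they are descriptions. Over all probes 528 passed, of which 470 were negative, so calls in general fell mostly on the negative side. Leaving out set 1, set 3 or set 4 brought the SCPL count to 0, where 94, 117 and 116 of all probes passed. Leaving out set 2 brought it to 4, when SCPL38 joined, where 441 of all probes passed. A term for the channel gave 0 SCPL probes and 273 of all, and keeping values at the limit of the scale gave 0 and 158. The SCPL count was also 0 with 1 average per pair of arrays (sets 1 and 2, and sets 3 and 4), and 0 in a test without moderation across probes, and in both of these the count over all probes was 0 too.

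At an unadjusted p under 0.05, 7 of 28 probes were counted in the turned orientation, beside 13.1% of all probes. One sign on every array was seen for 7 of 28, beside 23.0% of all, and a mean of at least 1 in size for 4 of 28, beside 4.40% of all. The median mean was -0.11 over the 28 probes and 0.031 over all. Over 11 probes with 1 gene it was -0.21, and over 17 probes listing several it was -0.042.

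**Figure D3:**
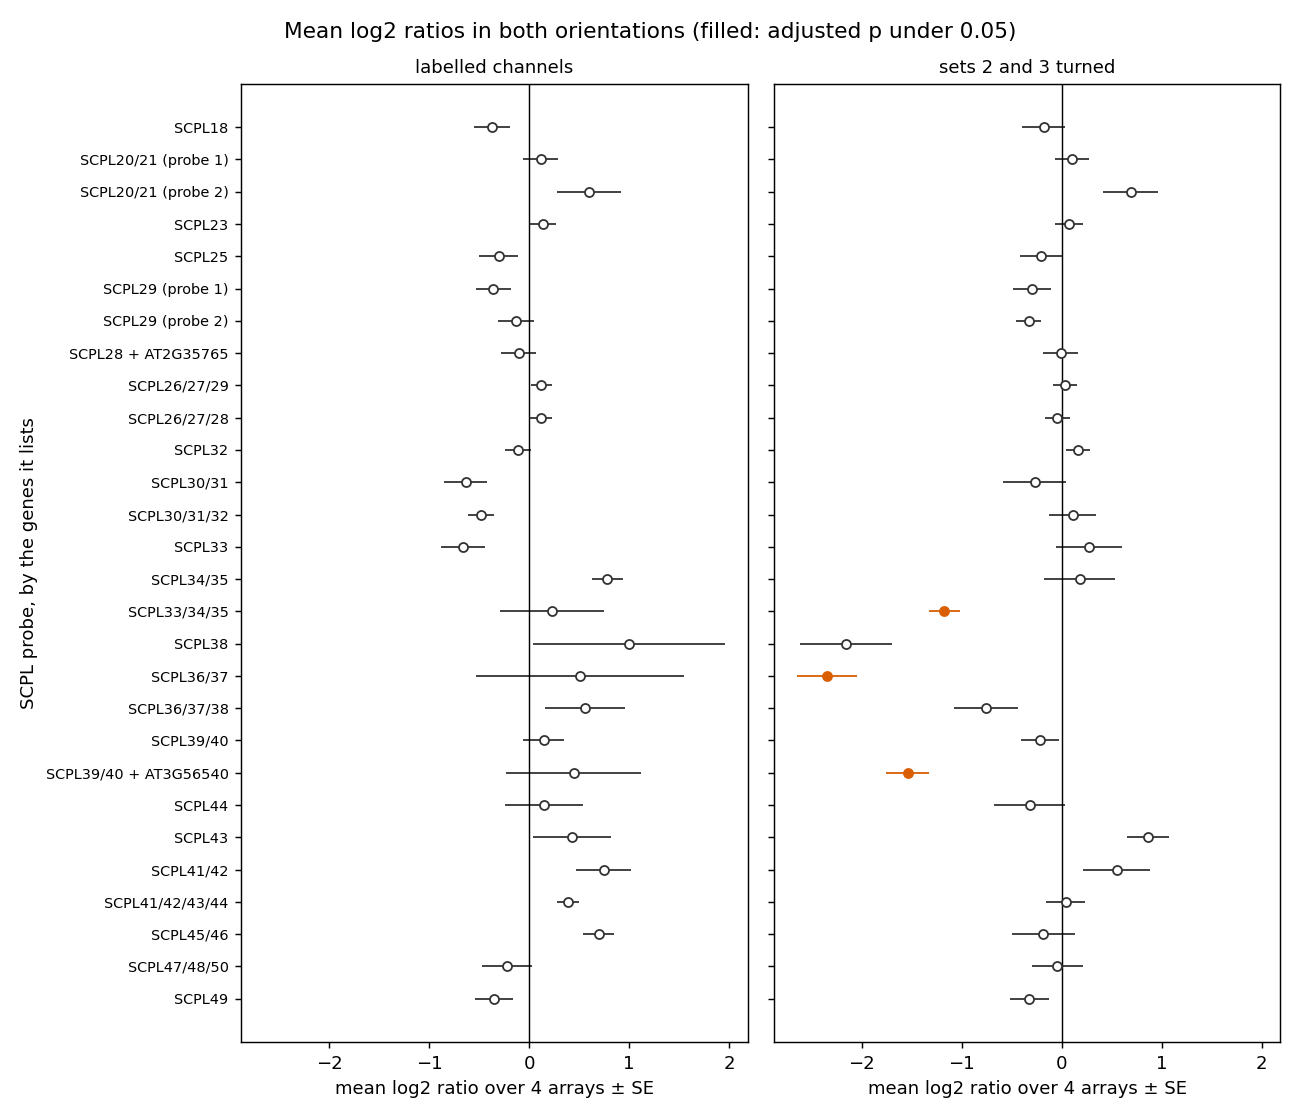
Mean log2 ratio over 4 arrays with its moderated SE (x axis) for the 28 SCPL probes (y axis), with the labelled channels on the left and sets 2 and 3 turned on the right. Filled points passed an adjusted p of 0.05 in limma, 0 on the left and 3 on the right, where the lowest mean is -2.35.

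The family divided between the contrasts that the arrays can form. For each probe the squared ratios were split into 4 shares. The first is the labelled contrast and the second the turned contrast, of sets 1 and 4 against sets 2 and 3. The others are the mean of the deposited ratios and the contrast of sets 1 and 2 against sets 3 and 4. The labelled contrast held the largest share in 14 of 28 probes, where it did so in 29.3% of 25185 probes measured on all arrays. The turned contrast led in 9 of 28, beside 37.7% of all. The mean of the deposited ratios led in 3, beside 21.5% of all, and the last contrast in 2, beside 11.5% of all.

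When the squared ratios were summed over the 28 probes, the turned contrast held more than the labelled one. The turned contrast held 66.6% of the squared ratios and the labelled contrast 23.5%, beside 50.3% and 24.8% over all probes. Without the 3 probes of SCPL36 to SCPL38, left out after their values were seen, these shares were 49.4% and 35.4%. SCPL44, the smaller probe of SCPL39 and SCPL40 and the smaller probe of SCPL20 and SCPL21 had 71.8%, 62.1% and 52.9% in the mean of the deposited ratios. A genotype difference cancels in that mean if apetala2 lay in each channel on equally many arrays, as labelled, which could not be checked.

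**Figure D4:**
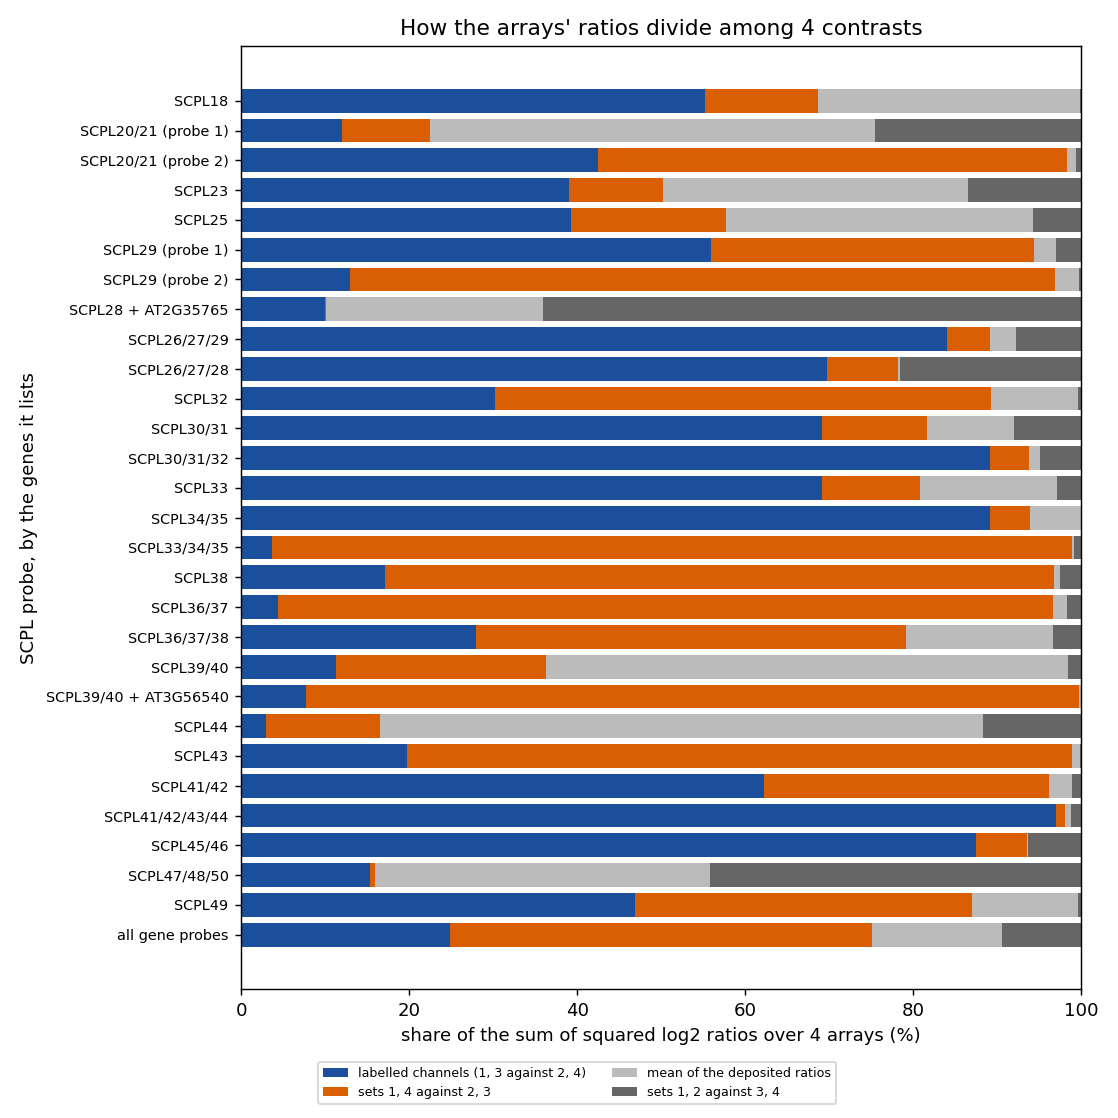
Shares of the sum of squared log2 ratios (x axis, percent) that each SCPL probe (y axis) has in 4 contrasts of the arrays, with all gene probes in the lowest bar. The probe of SCPL41 to SCPL44 has 97.0% in the labelled contrast and the probe of SCPL33, SCPL34 and SCPL35 has 95.3% in the turned contrast of sets 1 and 4 against sets 2 and 3.

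Across the 28 probes, sets 1 and 2 correlated at r = -0.739 (Spearman -0.604) and sets 3 and 4 at r = -0.851 (Spearman -0.634). Over all probes these pairs of arrays gave -0.479 and -0.474. Sets 1 and 4 correlated at r = 0.527 (Spearman 0.288) over the 28 probes, beside 0.313 over all probes. Over the 25 that list none of SCPL36 to SCPL38 it was r = 0.185, so the agreement between the array pairs rested largely on the probes of SCPL36 to SCPL38. The probes share arrays and in part genes, and these values are descriptions.

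The pairs of arrays can also be set side by side, each as the difference of its arrays divided by 2. For SCPL38 this was -1.16 for set 1 minus set 2 and -3.16 for set 4 minus set 3. For the SCPL36 and SCPL37 probe the values were -1.83 and -2.86, and for the probe of SCPL39, SCPL40 and AT3G56540 -1.09 and -1.99. Sets 3 and 4 thus gave the wider difference for each of them. The probes of SCPL34 and SCPL35 and of SCPL41 and SCPL42 had 0.96 and 1.29 between sets 1 and 2, but -0.60 and -0.19 between sets 4 and 3.

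**Figure D5:**
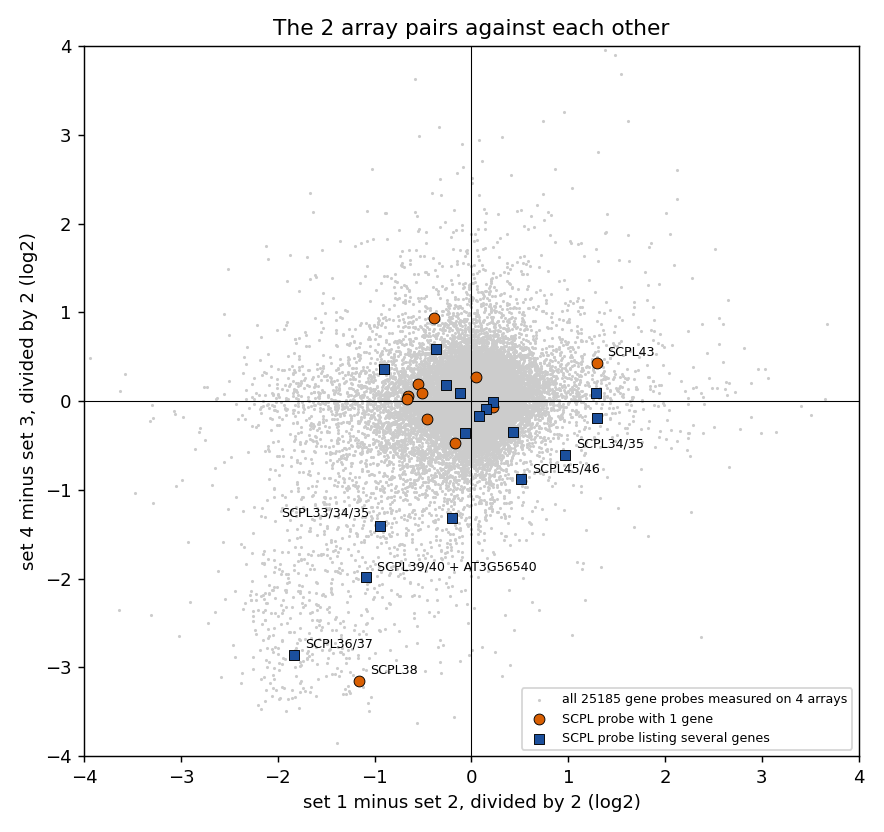
Differences of log2 ratios divided by 2, set 1 minus set 2 (x axis) and set 4 minus set 3 (y axis), for the SCPL probes over all 25185 gene probes measured on 4 arrays (grey), of which 5 lie outside the axes. SCPL38 is at -1.16 and -3.16, and SCPL43 at 1.29 and 0.43.

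How far probes that share a gene agree could be read from 16 pairs among the 28. The members of a pair had the same sign on all sets in 3 pairs, on 3 sets in 4, on 2 sets in 7, on 1 set in 1 and on no set in 1. The pair that never agreed is the first SCPL29 probe and the probe of SCPL26, SCPL27 and SCPL29, the latter with no ratio above 0.17 in size. The differences within pairs were not tested, and the annotation does not say which listed gene a shared probe reports.

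In the turned orientation, most probes of pollen markers lay on the same side as the largest SCPL36 to SCPL40 probes. This orientation was chosen from these same ratios, and 470 of the 528 probes that passed in it were negative, so the shared side is a description. Of 15 mature pollen marker genes matched to the gene table, 6 were listed on 10 tested probes. With sets 2 and 3 turned, 7 of the 10 passed, all negative, beside 2.05% of all probes and 1.82% negative. These 7 repeat few genes, since 4 list PPME1, 2 list VGD1 and VGDH1, and 1 lists AGL66 and AGL104. All 7 list several genes, and those of PPME1 also list genes outside the marker list. The 1 pollen probe with 1 gene, that of TUA1, had -0.53 (limma adjusted p = 0.121) and did not pass. The means of the 10 ran from -2.38 to 0.36 with a median of -2.22. Markers of anther and tapetum had 9 probes with means from -2.07 to 0.65 and a median of -0.59, of which 1 passed, negative. That probe lists SWEET8 beside AtVEX1 and SWEET4, and the probe of SWEET8 alone had -0.87 (limma adjusted p = 0.206). The probes of ATA27 had means of -1.27 and 0.24. Those of carpel and ovule had 9 probes from -0.66 to 2.12 with a median of 0.18, of which 2 passed, both positive. With the labelled channels 0 probes of these lists passed, as over all probes, the medians were 0.051 for pollen, -0.49 for anther and tapetum and 0.012 for carpel and ovule, and 5 of 10 pollen probes lay below 0. The part of these cell types in the SCPL ratios was not tested.

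Few genes of the pathway around the acyltransferase members could be read. Of 27 genes of sinapate ester and phenylpropanoid synthesis, 10 were listed on 12 tested probes, of which 2 have 1 gene. In either orientation 0 of the 12 passed, beside 0% of all probes with the labelled channels and 2.05% when turned, so the count says little about the pathway. Their means ran from -0.81 to 0.39 with a median of -0.052 in the turned orientation, and with the labelled channels from -1.04 to 0.38 with a median of 0.068. SHT, the spermidine hydroxycinnamoyl transferase of the tapetum, had -1.95, 1.74, 0.21 and 0.66 on sets 1 to 4 on its own probe, so that sets 1 and 2 lay furthest from 0. Its means were -1.04 ± 0.39 with the labelled channels and -0.81 ± 0.46 when turned (SE, n = 4). The probe that lists SHT beside GLC, AT5G57840 and HCT had smaller ratios of 0.39, 0.087, 0.29 and -0.34. Its means were 0.23 with the labelled channels and -0.080 when turned. UGT84A1, which makes glucose esters of hydroxycinnamic acids, had -0.061, 0.27, 0.50 and -0.24. Its mean with sets 2 and 3 turned was -0.27 ± 0.13 (SE, n = 4, limma adjusted p = 0.446), and with the labelled channels 0.10 ± 0.16. None of 13 genes of brassinosteroid reception, the route in which BRS1 acts, had a tested probe.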

How the data were processed

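Of 26933 spots in the deposited table, the 459 controls were left out. Each deposited value is the log2 ratio between an array's channels, normalized by the authors following a previous publication, per the labels. The labels used here do not name the scanner or any background correction or filter. Values within 0.0001 of the scale limit (absolute log2 of 6.644, a ratio of 100) were treated as not measured. Brightness is unknown, so its part in the array-to-array spread could not be assessed. The number of arrays also limits the precision.

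All 25777 gene probes measured on at least 3 arrays were fitted with an intercept in limma 3.58.1 (R 4.3.3, lmFit and eBayes), tested two-sided against 0 and adjusted by Benjamini-Hochberg over all of them, with a threshold of 0.05. The fit was also run on simulated, independent normal ratios with known changes. These lack the correlations between the arrays, so they cannot show whether the calls here hold. Genes were named from the platform annotation, which gives 5784 probes 1 gene and 7497 several and leaves 13193 unnamed here, and were matched to the TAIR10.1 table by gene ID. No coordinates or sequences are printed, because the build is not given and no sequence table was used here.

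Members, lists and orientations were chosen with earlier results of these data known. The rule for naming gave values on every array for probes with 1 gene, and for shared probes with an unadjusted p under 0.05 or a mean of at least 1 in size in either orientation. Figures were drawn with matplotlib 3.10.9. Alternatives were keeping limit values, centring and scaling arrays, no moderation, complete probes only, a channel term, averaging array pairs, and leaving out each set.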

Additional observations from a re-analysis of the deposited data

Results flagged for a closer look

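Of 56 sets of 4 array values examined by Dixon's ratio (28 probes in each orientation), 2 had 1 array far from the other 3, and chance marks about 1 in 20. Both were found with the labelled channels. The probe of SCPL30 and SCPL31 had -1.36 on set 1, against -0.44 to -0.34 on the other sets. The probe of SCPL41, SCPL42, SCPL43 and SCPL44 had 0.51 on set 1, against 0.34 to 0.36 on the others.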

How the results depend on the processing

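With the labelled channels 0 SCPL probes and 0 of all probes passed under every alternative, and the family count was 0 for probes with 1 gene and for shared probes alike. Turning sets 2 and 3 in place of sets 2 and 4 gave 3. With sets 2 and 3 turned, the SCPL count of 3 and the count of 528 over all probes became 0 and 158 with limit values kept, 0 and 273 with a channel term, 0 and 0 without moderation, and 0 and 0 with array pairs averaged (unadjusted p under 0.05 for 2941 and 1923 probes in these last settings). Leaving out 1 set gave from 0 to 4 SCPL probes and from 94 to 441 of all probes. Centring, scaling and complete probes kept the same 3 SCPL probes. No paired analysis was possible because the arrays form 1 group. The number of arrays limits every call.

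Of 56 SCPL means, 22 changed sign when a set was left out, 8 with the labelled channels and 14 with sets 2 and 3 turned, none of which had passed, and no other alternative changed a sign. Ranges with 1 set left out follow. With the labelled channels they were -0.056 to 0.21 for SCPL20/SCPL21, -0.25 to 0.036 for SCPL28/AT2G35765, -0.18 to 0.68 for SCPL33/SCPL34/SCPL35, -0.27 to 1.51 for SCPL36/SCPL37, -0.022 to 0.35 for SCPL39/SCPL40, -0.11 to 0.97 for SCPL39/SCPL40/AT3G56540, -0.30 to 0.40 for SCPL44, and -0.45 to 0.037 for SCPL47/SCPL48/SCPL50. With sets 2 and 3 turned they were -0.40 to 0.028 for SCPL18, -0.066 to 0.20 for SCPL20/SCPL21, -0.045 to 0.14 for SCPL23, -0.19 to 0.099 for SCPL28/AT2G35765, -0.015 to 0.092 for SCPL26/SCPL27/SCPL29, -0.11 to 0.019 for SCPL26/SCPL27/SCPL28, -0.49 to 0.096 for SCPL30/SCPL31, -0.069 to 0.33 for SCPL30/SCPL31/SCPL32, -0.10 to 0.56 for SCPL33, -0.16 to 0.50 for SCPL34/SCPL35, -0.61 to 0.074 for SCPL44, -0.11 to 0.18 for SCPL41/SCPL42/SCPL43/SCPL44, -0.49 to 0.10 for SCPL45/SCPL46, and -0.21 to 0.27 for SCPL47/SCPL48/SCPL50.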
